A study of Mus musculus with 6 samples.

Results

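The mammalian cell passes from G1 into S phase under the control of a small set of cyclins, cyclin-dependent kinases (CDKs) and inhibitors, and 10 genes of this set were described here in the injured mouse liver: the D-type cyclins *Ccnd1*, *Ccnd2* and *Ccnd3*, the E-type cyclins *Ccne1* and *Ccne2*, the kinases *Cdk2*, *Cdk4* and *Cdk6*, the inhibitor *Cdkn1b* and the transcription factor *E2f1*. They were taken by gene symbol from a table of 24346 genes. All 10 were among the 11956 genes that had a mean of at least 0.5 FPKM (fragments counted on a gene, scaled to the length of its transcript and to the library size) over the 6 libraries, and *Ccne2* reached that mean only through its level in the mutant livers. RNA of whole liver was sequenced from 6 male C57/BL6 mice of 8 weeks, 1 library per mouse, 24 hours after an intraperitoneal dose of 0.6 µl carbon tetrachloride (CCl4) per gram of body weight, given in sunflower oil. CCl4 is converted to radicals in pericentral hepatocytes and kills them. The 3 controls, med23f/f, carry floxed alleles of the Mediator subunit gene *Med23*, and the 3 med23Δli mice carry the same alleles with a Cre transgene driven by the Albumin promoter, which acts in hepatocytes, so that the other cells of the liver keep the gene. No uninjured liver enters the comparison, and every difference below is between genotypes after the same dose. The same dose did not mean the same extent of injury. For acutely injured mice the paper reports substantial necrosis in controls and scarcely any in mutants, which also had fewer apoptotic cells and lower serum transaminases. The part of the extent of injury in the differences below was not tested.

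D-type cyclins are made when growth factors reach a quiescent cell, and together with CDK4 or CDK6 they start the phosphorylation of the retinoblastoma protein. Cyclin E with CDK2 completes that phosphorylation, which frees E2F factors to switch on the genes of DNA replication. The product of *Cdkn1b*, p27, binds and blocks cyclin E–CDK2, while it also takes part in the assembly of cyclin D complexes, and much of its control is known to lie in translation and protein turnover, which mRNA levels do not show. Hepatocytes of the adult liver rest outside the cycle and re-enter it after chemical injury, with *Ccnd1* as the best known early marker of that re-entry.

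Summed FPKM ran from 591848 to 651193 over the libraries. The study's methods state the sequencing depth as a median over samples, whereas the read number of each library cannot be recovered from FPKM and is not given in the sources used here. No counting interval is therefore given, and p-values rest on the spread between the animals. In the limma fits the spread of each gene is drawn toward a trend over all genes tested, so that its intervals also depend on other genes. Fold changes are on the scale of log2(FPKM + 0.1), which understates the change of low genes.

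The deletion could not be read from the *Med23* mRNA of whole liver. *Med23* stood at 3.42, 2.97 and 4.14 FPKM in the med23f/f livers and at 3.40, 3.40 and 2.91 FPKM in those of the med23Δli label, and the genotypes did not separate (log2 fold change -0.11, adjusted p = 0.685, limma with Benjamini-Hochberg adjustment over all genes tested). The value covers the transcripts of all liver cells and all exons, and which exons were removed is not separated in it. Hepatocyte, Kupffer cell and neutrophil markers had no member past the test, whereas all 7 endothelial markers were lower in med23Δli, with summed levels of 83.8 to 121 FPKM in controls and 44.9 to 48.1 FPKM in med23Δli, and 1 of 8 stellate cell markers was lower. Among all genes tested, 9.48% were called lower. The stellate cell call, at an adjusted p of 0.0497 (limma, Benjamini-Hochberg), was lost in 5 fits with 1 library left out. No endothelial call was lost in more than 4 of these fits. The part of these cell types in the results below was not tested, and in bulk tissue fewer cells of a type cannot be told apart from less RNA per cell. One med23Δli library, replicate 2, held adipose tissue transcripts at a summed 13.3 FPKM, against at most 0.540 FPKM in the others.

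Of the 10 genes, *Cdkn1b* and *Ccne2* were higher in med23Δli and none was lower at an adjusted p under 0.05 (limma, Benjamini-Hochberg), also none at an unadjusted p under 0.05. Both were also past 2-fold. *Ccne2* reached the filter only through med23Δli, where it is high, and without the filter its adjusted p was 0.0647 (limma, Benjamini-Hochberg), which leaves *Cdkn1b* alone past the test. Among all genes tested, 11.6% were called higher, 9.48% lower and 4.45% higher by more than 2-fold. A set of 10 genes with 2 calls gives no statement about the set beyond its single genes. The median log2 fold change of the 10 genes was 0.10 and that of all genes tested 0.02. In the same way, 2 of the 10 genes had groups that did not overlap, while 43.7% of all genes tested had such groups.

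**Figure D1:**
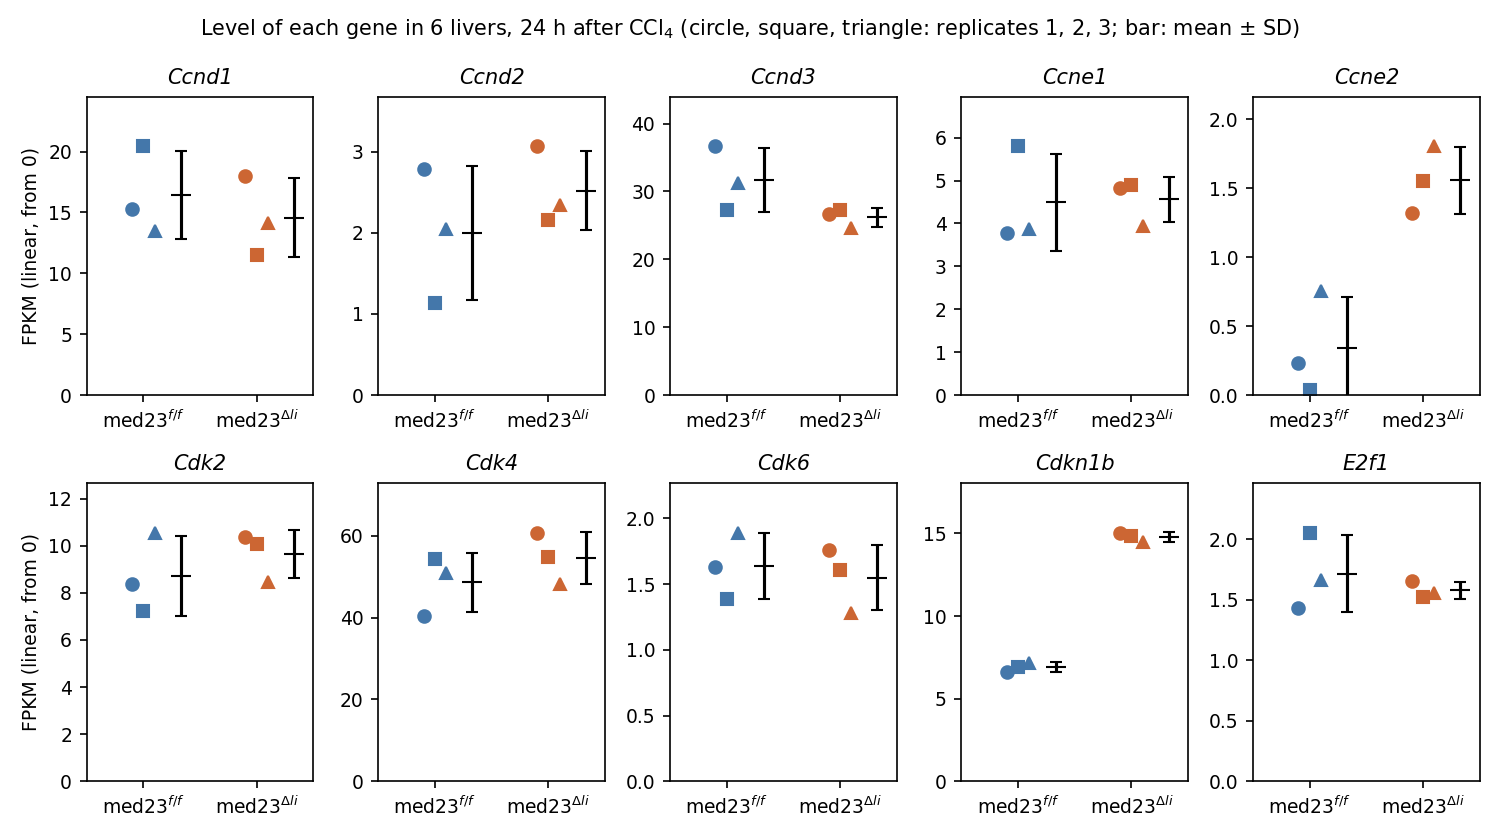
FPKM of the 10 genes in each library, 1 panel per gene with its own axis from 0, with med23f/f and med23Δli side by side; points are mice and bars the mean with the SD (n = 3 per group), of which the lower arm for *Ccne2* in controls ends at the axis. Only the *Cdkn1b* and *Ccne2* panels show groups that do not overlap, with *Cdkn1b* near 6.90 FPKM in controls and near 14.8 FPKM in med23Δli.

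*Cdkn1b* was the gene that separated the genotypes most clearly. Its level was 6.59, 6.91 and 7.18 FPKM in the med23f/f livers and 15.1, 14.8 and 14.5 FPKM in the med23Δli livers. The mutant libraries were thus all above every control, and within each group the values lay close together, with a coefficient of variation of 4.29% in controls and 1.97% in med23Δli. The means were 6.90 ± 0.296 and 14.8 ± 0.291 FPKM (SD, n = 3 each), and the log2 fold change was 1.09 (SE 0.12, 95% interval 0.82 to 1.36) with an adjusted p of 0.00224 (limma, Benjamini-Hochberg). On the linear scale this was a 2.13-fold difference, with an interval of 1.76 to 2.57. The exact two-sided permutation test of 3 against 3 animals gave 0.1, the smallest p that it can give. When any one library was left out, the log2 fold change stayed between 1.06 and 1.12.

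The gene lies on the plus strand of chromosome 6, at chr6:134920401-134925513 of mm10 (ENSMUSG00000003031.14, GENCODE M21), and no other annotated gene shares its exons. Because it is the member with the clearest difference, the 250 bases before its start are given, chr6:134920151-134920400 on the plus strand of GRCm38, from RefSeq. Capitals mark CCAAT and GGGCGG, the letters of a CCAAT box and a GC box, which the factors NF-Y and Sp1 are known to bind.

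Cdkn1b: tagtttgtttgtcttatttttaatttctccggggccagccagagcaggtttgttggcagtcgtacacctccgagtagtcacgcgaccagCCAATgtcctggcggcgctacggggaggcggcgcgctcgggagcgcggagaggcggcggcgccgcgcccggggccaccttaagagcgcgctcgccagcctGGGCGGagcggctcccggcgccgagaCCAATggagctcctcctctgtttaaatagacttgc

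This stretch was 64.4% G and C and held 28 CpG dinucleotides, against a median of 52.4% G and C over all 32851 promoter windows. The other members with an entry were above that median too, from 59.6% in one *Ccnd3* stretch to 77.6% in *E2f1*. *Cdk4* also had 64.4%, and *E2f1* held 43 CpG dinucleotides. In the *Cdkn1b* stretch CCAAT began at positions -161 and -35 and GGGCGG at -61, where -1 is the last base before the start. A match on either strand was found in 37.4% of all windows for CCAAT and in 35.7% for GGGCGG, so both are common. The less common letters searched on both strands were those of E2F sites (TTTCCCGC, TTTCGCGC, TTTGGCGC or TTTGCCGC, in 2.26% of windows), the FoxO site GTAAACA (3.65%), the cyclic AMP element TGACGTCA (1.79%), the AP-1 site TGACTCA (5.20%) and the ROR core TAGGTCA (2.61%). None of these was in the *Cdkn1b* window. Of the 7 members with a RefSeq promoter, *Cdk2* held an E2F match from position -140 and one *Ccnd3* window a FoxO match from position -243, and neither gene was past the test. The windows run from 250 bases before to 50 bases after the start, and a match is a match of letters only. *Ccnd1*, *Ccnd2* and *Ccne2* had no entry.

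p27 belongs to the Cip/Kip family with p21, the product of *Cdkn1a* and a target of p53, and with p57, the product of *Cdkn1c*. *Cdkn1a* was by far the most abundant of the family, at 85.1, 80.4 and 87.6 FPKM in controls and 77.7, 77.0 and 83.0 FPKM in med23Δli, with overlapping groups, a log2 fold change of -0.09 and an adjusted p of 0.601 (limma, Benjamini-Hochberg). *Cdkn1c* was low and its groups overlapped, between 0.549 and 1.02 FPKM in controls and between 0.994 and 2.004 FPKM in med23Δli. Its log2 estimate of 0.90 had a 95% interval of 0.16 to 1.64 and missed the threshold after adjustment (adjusted p = 0.0821, limma, Benjamini-Hochberg). The family sum, a quantity chosen after its values were seen, was 92.0 ± 3.56 FPKM in controls and 95.5 ± 3.45 FPKM in med23Δli (SD, n = 3 each) and overlapped. Within it the share of *Cdkn1b* was 7.15, 7.83 and 7.53% in controls and 16.1, 15.9 and 14.6% in med23Δli, groups that did not overlap (exact two-sided permutation p = 0.1, the smallest possible). Of the INK4 inhibitors, which bind CDK4 and CDK6 alone, *Cdkn2c* and *Cdkn2d* were tested and did not pass, while *Cdkn2a* and *Cdkn2b* had means over the 6 libraries under 0.5 FPKM.

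**Figure D2:**
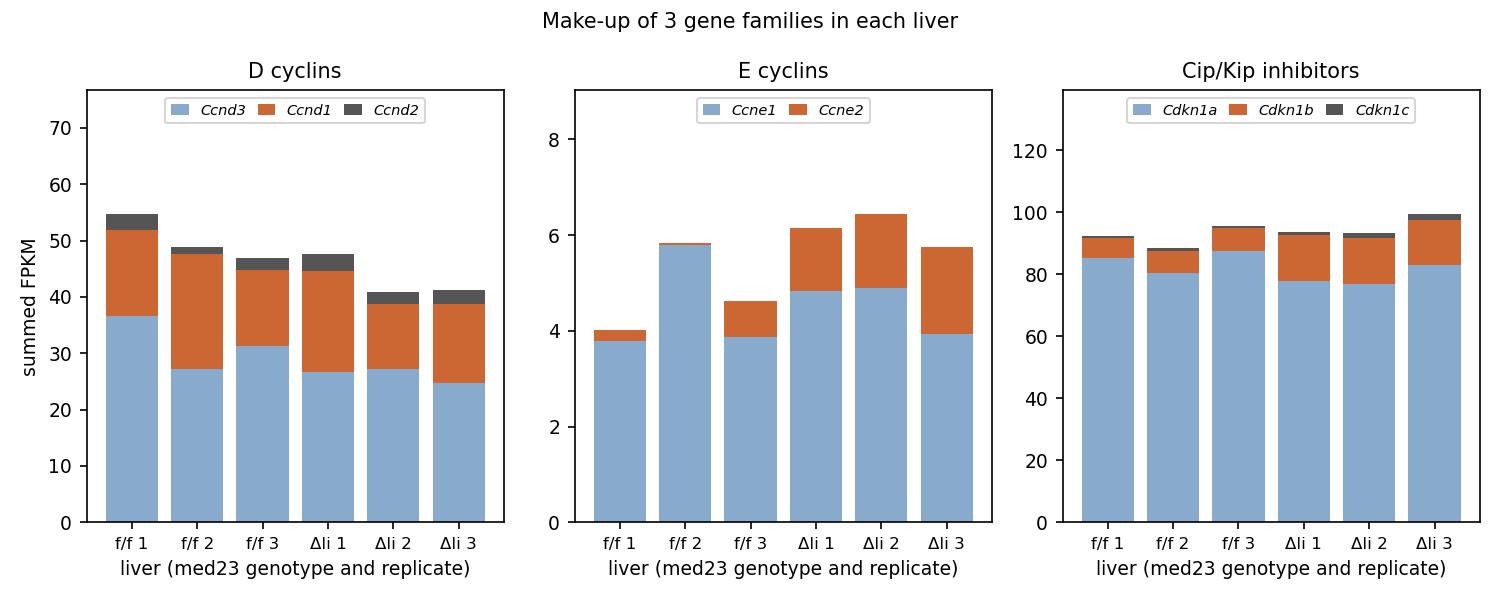
FPKM stacked within each library for the D cyclins, the E cyclins and the Cip/Kip inhibitors, with 1 bar per mouse and the y axis from 0. *Ccnd3* is the tallest part of every D cyclin bar, and *Cdkn1b* rises from 7.15–7.83% to 14.6–16.1% of Cip/Kip bars of similar height.

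*Ccne2*, an E-type cyclin that E2F itself switches on, was the other member with a higher level in med23Δli, and it was the least abundant member in controls. Its level was 0.234, 0.0389 and 0.754 FPKM in the med23f/f livers and 1.32, 1.55 and 1.80 FPKM in the med23Δli livers. Every mutant library was above every control, but relative to their mean the controls differed among themselves more than in any other member. The means were 0.342 ± 0.370 and 1.56 ± 0.243 FPKM (SD, n = 3 each), and the log2 fold change was 2.27 (SE 0.59, 95% interval 0.91 to 3.64) with an adjusted p of 0.0328 (limma, Benjamini-Hochberg). The fold difference of 4.83 has an interval of 1.87 to 12.4 and depends on the value added before the logarithm, since the log2 fold change was 0.96 with 1 FPKM added and 2.90 with 0.01 FPKM added. It also depends on single controls, with a log2 fold change of 1.62 without med23f/f replicate 2 and 2.93 without med23f/f replicate 3. The call was lost in 5 of 14 alternatives, with an adjusted p of 0.0647 without the filter on low genes, 0.0822 without med23f/f replicate 1, and 0.0853, 0.0932 and 0.108 without med23Δli replicates 1, 2 and 3 (limma, Benjamini-Hochberg). The gene spans chr4:11191351-11204779 of mm10 on the plus strand (ENSMUSG00000028212.16), and 609 of its exon bases, 17.4%, overlap *Ints8* on the other strand. *Ints8* averaged 7.09 FPKM in controls and 6.39 FPKM in med23Δli, with a log2 fold change of -0.14 that did not pass (adjusted p = 0.532, limma, Benjamini-Hochberg).

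Its relative *Ccne1* (chr7:38097984-38107534, minus strand) did not differ detectably. The values were 3.79, 5.80 and 3.88 FPKM in controls and 4.84, 4.89 and 3.94 FPKM in med23Δli, and the mutant values fell inside the control range. The log2 fold change was 0.04 with a 95% interval of -0.42 to 0.50 (adjusted p = 0.895, limma, Benjamini-Hochberg). Since FPKM is scaled by transcript length, the E cyclins can be added within a library, and their sum was 4.83 ± 0.925 FPKM in controls and 6.12 ± 0.350 FPKM in med23Δli (SD, n = 3 each), with overlapping groups (exact two-sided permutation p = 0.2, 0.3 after Benjamini-Hochberg adjustment over 6 sums and ratios). *Ccne2* made up 5.82, 0.666 and 16.3% of that sum in controls and 21.4, 24.1 and 31.4% in med23Δli, a share computed after the values were seen. *Ccne1* remained the larger part in every library.

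**Figure D3:**
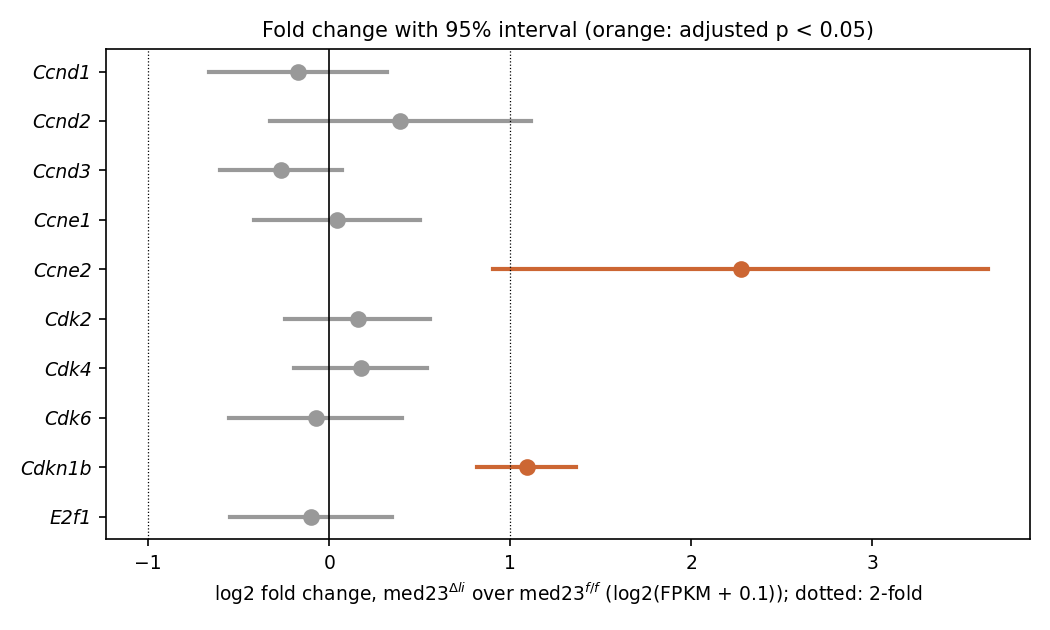
Log2 fold change of each gene, med23Δli over med23f/f, from limma on log2(FPKM + 0.1), with its 95% interval, by role. The intervals of *Cdkn1b* (0.82 to 1.36) and *Ccne2* (0.91 to 3.64) lie above 0, and the other 8 include 0.

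None of the D cyclins passed the test. *Ccnd1* (chr7:144929931-144939925, minus strand), the cyclin that usually marks the entry of hepatocytes into G1, was at 15.3, 20.4 and 13.5 FPKM in controls and at 18.0, 11.5 and 14.2 FPKM in med23Δli. The groups overlapped across most of their range, and the log2 fold change of -0.17 had a 95% interval of -0.66 to 0.32 (adjusted p = 0.584, limma, Benjamini-Hochberg). Of its exon bases 1100, or 23.4%, overlap *Oraov1* on the other strand, a gene that was lower in med23Δli (log2 fold change -0.78, adjusted p = 0.0233, limma, Benjamini-Hochberg), and whether strand was used in the authors' quantification is not stated. *Ccnd3* (chr17:47505051-47599691, plus strand) was the most abundant D cyclin, at 36.7, 27.2 and 31.3 FPKM in controls and 26.6, 27.3 and 24.6 FPKM in med23Δli. Here only the highest mutant value reached into the control range, by less than 0.1 FPKM, and the log2 fold change of -0.27 (95% interval -0.60 to 0.07) was the lowest among the members (adjusted p = 0.215, limma, Benjamini-Hochberg). *Ccnd2* (chr6:127125162-127152193, minus strand) was low, at 2.79, 1.14 and 2.05 FPKM in controls and 3.06, 2.15 and 2.34 FPKM in med23Δli. Its interval was the widest after that of *Ccne2*, from -0.33 to 1.11 around a log2 estimate of 0.39 (adjusted p = 0.391, limma, Benjamini-Hochberg), and it therefore admits a 2.16-fold higher level.

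The D cyclin sum was 54.7, 48.8 and 46.8 FPKM in controls and 47.7, 40.9 and 41.2 FPKM in med23Δli, and 1 mutant library overlapped the controls (exact two-sided permutation p = 0.2, 0.3 adjusted over the 6 sums and ratios). The make-up of the sum did not separate the groups. *Ccnd1* contributed 32.9 ± 7.82% in controls and 33.4 ± 4.86% in med23Δli (SD, n = 3 each, exact two-sided permutation p = 0.9), and *Ccnd3* between 55.8 and 67.0% over the 6 libraries, a share computed after the values were seen.

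The catalytic partners showed no detectable difference either. *Cdk4* (chr10:127063534-127067920, plus strand) was the most abundant of the 10 genes, with 40.4, 54.5 and 51.0 FPKM in controls and 60.8, 54.8 and 48.2 FPKM in med23Δli, and its log2 fold change of 0.17 had a 95% interval of -0.20 to 0.54 (adjusted p = 0.459, limma, Benjamini-Hochberg). *Cdk6* (chr5:3341485-3531008, plus strand), which shares the D cyclins with *Cdk4* and is used mainly in blood cells, was at 1.63, 1.39 and 1.89 FPKM in controls and 1.76, 1.61 and 1.28 FPKM in med23Δli, a log2 fold change of -0.08 with an interval of -0.55 to 0.40. *Cdk2* (chr10:128697939-128705031, minus strand), the partner of cyclin E, was at 8.36, 7.22 and 10.6 FPKM in controls and 10.4, 10.1 and 8.47 FPKM in med23Δli, a log2 fold change of 0.16 with an interval of -0.24 to 0.56. For each kinase the values of the groups ran through one another. *Cdk4* supplied 96.7 ± 0.729% of the *Cdk4* and *Cdk6* transcripts in controls and 97.3 ± 0.147% in med23Δli (SD, n = 3 each, exact two-sided permutation p = 0.4). A stretch of 641 exon bases of *Cdk4*, 19.7%, overlaps *Tspan31* on the other strand, and *Tspan31* did not pass the test (log2 fold change 0.12, adjusted p = 0.622, limma, Benjamini-Hochberg).

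*E2f1* (chr2:154559407-154569892, minus strand), both an activator of S phase genes and a target of other E2F factors, stood at 1.43, 2.06 and 1.66 FPKM in controls and 1.66, 1.52 and 1.56 FPKM in med23Δli. The mutant values were all inside the control range, and the log2 fold change of -0.10 had a 95% interval of -0.55 to 0.35 (adjusted p = 0.734, limma, Benjamini-Hochberg). Over the 8 members that did not pass, the intervals reached from 0.631-fold to 2.16-fold, so that smaller differences than these may have gone undetected with 3 animals a group.

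The ratios of *Cdkn1b* to the D cyclin sum and to *Cdk2* within each library separated the groups. *Cdkn1b* alone did so already, and the ratios are no separate support for its difference. *Cdkn1b* over the D cyclin sum was 0.120, 0.142 and 0.153 in controls and 0.316, 0.362 and 0.352 in med23Δli, a 2.48-fold difference between the means. *Cdkn1b* over *Cdk2* was 0.789, 0.958 and 0.680 in controls and 1.45, 1.47 and 1.71 in med23Δli, a 1.91-fold difference. A factor common to all genes of a library cancels in both ratios. The exact two-sided permutation p was 0.1 for both, the smallest possible, and 0.3 adjusted over the 6 sums and ratios. In the order of levels *Cdkn1b* moved from the fifth place in controls, between *Cdk2* and *Ccne1* and overlapping neither, to the third in med23Δli, where its range overlapped that of *Ccnd1*. *Ccne2* moved from the tenth place, with a range below that of *Cdk6*, to the ninth, where *E2f1*, *Ccne2* and *Cdk6* overlapped. The order of the other genes was *Cdk4*, *Ccnd3*, *Ccnd1*, *Cdk2*, *Ccne1*, *Ccnd2*, *E2f1* and *Cdk6* in both groups, and in controls *Ccnd2*, *E2f1* and *Cdk6* overlapped.

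The genes that work around these members were counted on 8 lists with 91 genes, of which 75 could be tested, and these lists too were drawn up with earlier results of these data known. In all, 15 were higher and 2 lower in med23Δli, beside the background of 11.6% and 9.48% of all genes tested. The 15 include *Pola1* and *Fbxo32*, which reached the filter only through med23Δli, where they are high. The 15 became 4, 6 and 5 without med23Δli replicates 1, 2 and 3, and the 2 became 7 without med23f/f replicate 3 and 1 without med23f/f replicate 1, med23Δli replicate 1 or med23Δli replicate 2. *Rb1*, the retinoblastoma gene, was higher, from 0.847 ± 0.0820 to 1.70 ± 0.268 FPKM (SD, n = 3 each, log2 fold change 0.92, adjusted p = 0.0211, limma, Benjamini-Hochberg), while its relative *Rbl1*, which codes for p107, was lower, from 1.90 ± 0.449 to 0.854 ± 0.242 FPKM (log2 fold change -1.07, adjusted p = 0.0308). *Tfdp2*, a dimer partner of E2F, was the other of the 3 genes past the test among 11 pocket protein, E2F and DP genes, at a log2 fold change of 0.64. The median of the 11 was 0.27, and it ran from 0.09 without med23f/f replicate 1 to 0.32 without med23f/f replicate 3. These calls depended on single libraries, since the list had none without med23Δli replicate 1 or 2, 1 lower and none higher without med23Δli replicate 3, 1 higher and none lower without med23f/f replicate 2, 2 higher and none lower without med23f/f replicate 1, and 2 in each direction without med23f/f replicate 3. Of 15 alternatives, *Rb1* kept its call in 11, *Rbl1* in 9 and *Tfdp2* in 6.

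Of the 10 genes for turnover of p27 and the G1 cyclins, 3 were higher and their median log2 fold change was 0.01. These were *Skp1a*, an SCF ubiquitin ligase subunit (0.59), *Rnf123*, a subunit of the ligase that acts on p27 in G1 (0.49), and *Cops5*, a COP9 signalosome subunit that binds p27 (0.47). The count was 0 without any one of the 3 med23Δli libraries or without med23f/f replicate 2, and 1 without med23f/f replicate 3, without the filter or with eBayes without trend (limma, Benjamini-Hochberg). *Skp2*, the SCF subunit that recognises p27, did not pass, with 1.26 to 1.44 FPKM in controls and 1.07 to 1.42 FPKM in med23Δli. The CDK-activating kinase and the CDC25 and WEE1 group had 0 of 6 past the test by limma with Benjamini-Hochberg adjustment and 2 of 6 at an unadjusted p under 0.05, a threshold that 37.6% of all genes tested passed. Without med23f/f replicate 3, 1 of the 6 was called in each direction.

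Downstream of E2F, 3 of 18 S phase genes were higher and none lower by the adjusted p. *Cdt1*, which licenses replication origins, had a log2 fold change of 0.85, *Mcm10*, which takes part in origin firing, 1.09, and *Pola1*, the DNA polymerase alpha subunit, 1.37. *Pola1* reached the filter only through med23Δli, and without the filter its adjusted p was 0.0650 (limma, Benjamini-Hochberg). Among the S phase genes with both group means at the filter, 2 of 17 were higher. In the fit without the filter, 1 of these 17 was higher. At an unadjusted p under 0.05 the fit with the filter held 1 more, *Mcm2*, a subunit of the replicative helicase, with a log2 estimate of -0.52 in the other direction (adjusted p = 0.0641, limma, Benjamini-Hochberg). The 3 higher calls became 1 without any one med23Δli library or without med23f/f replicate 3, and 2 without med23f/f replicate 1 or 2, while lower calls numbered 2 without med23f/f replicate 3 and 1 without med23f/f replicate 2. The median of the list was -0.17, and it ran from -0.24 to -0.05 with a library left out. *Ccna2*, the cyclin of S phase, did not pass (log2 fold change -0.09, adjusted p = 0.811, limma, Benjamini-Hochberg). Of 13 genes of G2 and mitosis only 5 reached the filter and 0 passed by limma with Benjamini-Hochberg adjustment, 1 at an unadjusted p under 0.05. Their median log2 fold change of 0.12 was 0.55, with 1 gene called higher, without med23Δli replicate 2, the library with adipose transcripts, and -0.14 without med23Δli replicate 3. *Mki67*, the usual marker of cycling cells, was at 0.221, 0.0403 and 0.0803 FPKM in controls and 0.406, 0.106 and 0.348 FPKM in med23Δli, under the filter and with overlapping groups.

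**Figure D4:**
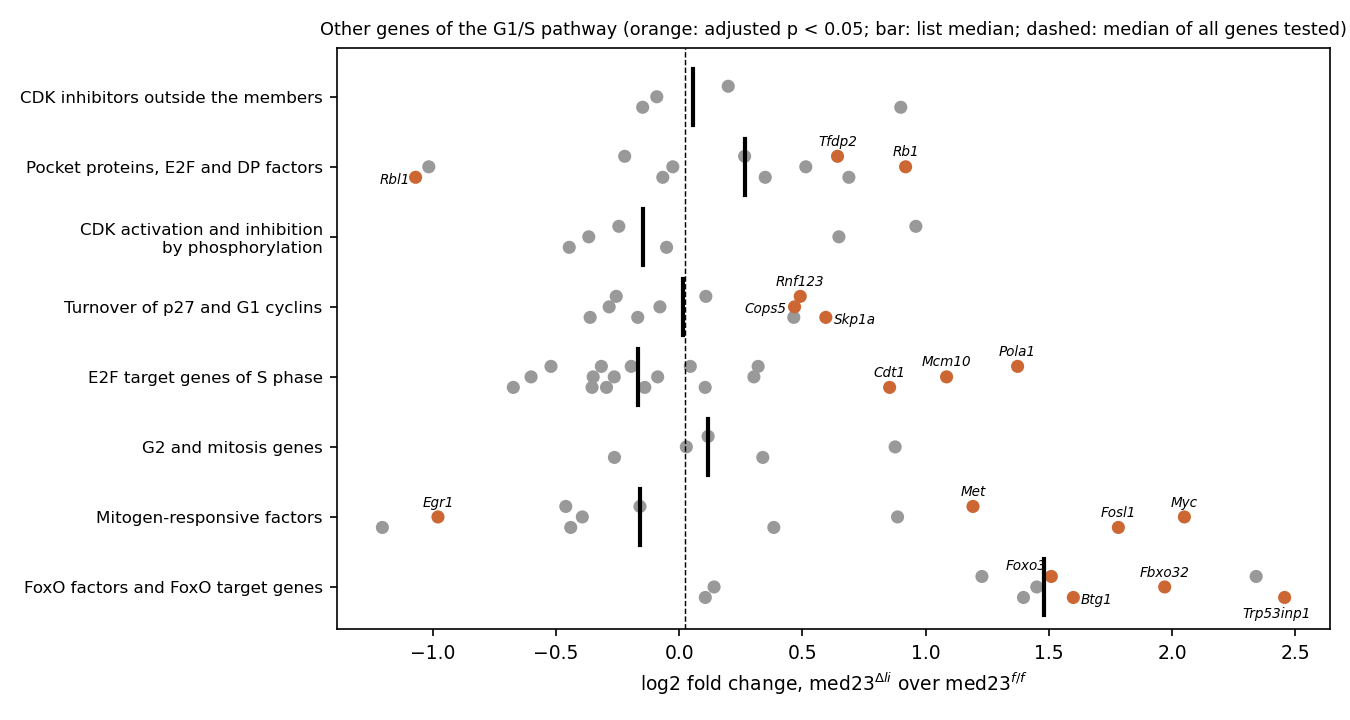
Log2 fold change, med23Δli over med23f/f, of the tested genes of the 8 pathway lists, 1 point per gene, with orange points for an adjusted p under 0.05, a black bar for the median of the list and a dashed line for the median of all genes tested. The medians of 7 lists lie between -0.17 and 0.27 (between -0.30 and 0.55 with a library left out), and that of the FoxO list is 1.48, or 0.90 without med23f/f replicate 2.

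Upstream, 3 of 11 mitogen-responsive factors were higher and 1 was lower, with a median of -0.16. Without med23f/f replicate 1 or any one med23Δli library 2 were higher, 2 were lower without med23f/f replicate 2 or 3, and the median was 0.06 without med23f/f replicate 3. *Myc*, a driver of growth and of G1 entry, was at 7.28, 10.2 and 11.6 FPKM in controls and 41.7, 35.4 and 42.5 FPKM in med23Δli, with no overlap and a log2 difference of 2.05 (adjusted p = 0.00131, limma, Benjamini-Hochberg). *Met*, the receptor of hepatocyte growth factor, had a log2 fold change of 1.19 and *Fosl1*, an AP-1 subunit, 1.78, whereas the immediate early gene *Egr1* fell by 0.98 on the log2 scale. On the list of FoxO factors and their known targets, 4 of 10 tested genes were higher and none was lower, with a median of 1.48 beside 0.02 for all genes tested. In 8 of the 10 genes med23f/f replicate 2 was the lowest of the 6 libraries, and without it the median was 0.90, with 4 genes higher. The count was 1 without med23Δli replicate 1, 2 without med23Δli replicate 2 or 3, and 6 without med23f/f replicate 3. Any part of FoxO factors in the level of *Cdkn1b* was not tested. *Foxo3* was at 1.34, 1.10 and 0.978 FPKM in controls and 3.04, 3.57 and 3.64 FPKM in med23Δli (log2 fold change 1.51, adjusted p = 0.00337, limma, Benjamini-Hochberg). The others were *Trp53inp1* (2.46), *Fbxo32* (1.97) and *Btg1* (1.60), of which *Trp53inp1* is also a p53 target and *Fbxo32* reached the filter only through med23Δli, which leaves 3 of 9 higher among genes with both group means at the filter. Of these 9 genes, 2 were higher without the filter, with eBayes without trend, with robust eBayes or with the replicate block. Among the 17 calls on the 8 lists, those of *Myc*, *Met*, *Egr1* and *Foxo3* held in all 15 alternatives.

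The 4 genes closest to *Cdkn1b* in their course over the 6 libraries, by the root mean square difference of centred log2 values, were *Kif3a* (0.0501), *Zwint* (0.0743), *Slc39a11* (0.0798) and *P4ha2* (0.0813). For *Ccne2* they were *Trp53inp1* (0.191), *Dusp8* (0.248), *Gpnmb* (0.255) and *Vmn2r3* (0.269). The measure is a description of 6 points that share the contrast of the genotypes.

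**Figure D5:**
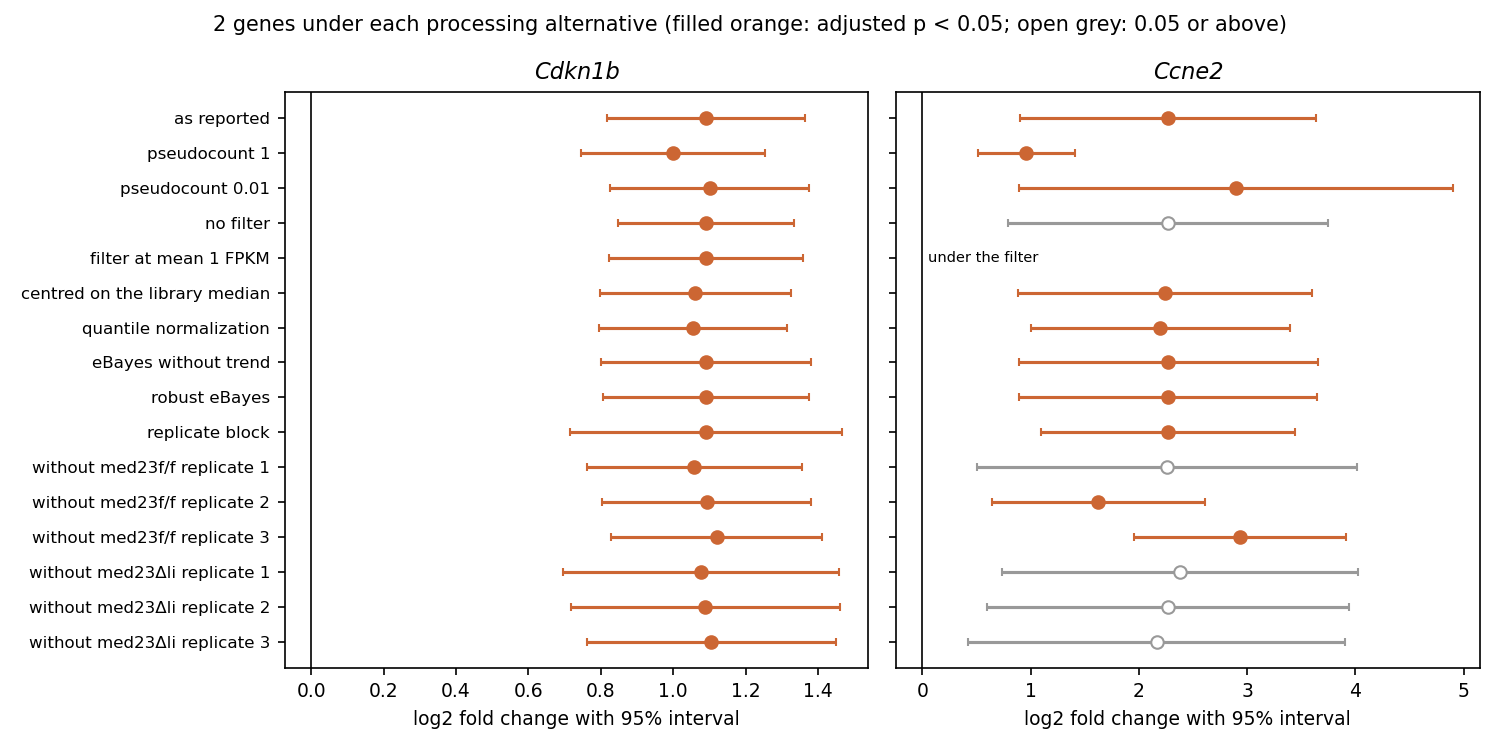
Log2 fold change of *Cdkn1b* and *Ccne2* with its 95% interval as reported and under each alternative, with filled points for an adjusted p under 0.05. *Cdkn1b* stays between 1.00 and 1.12 and filled throughout, while *Ccne2* ranges from 0.96 to 2.93 and is open in 5 alternatives.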

How the data were processed

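RNA of 6 livers was sequenced (1 library per mouse, 3 per genotype), and per the labels' processing notes FastQC, TopHat and Cuffdiff were used with the mm10 build. Versions, annotation and strand settings are not given in the sources used here. The authors deposited 1 table with an FPKM value per gene and library, which was used as it stands. The authors' own group means, log2 fold change, test statistic, p-value and q-value columns in the deposited table hold their comparison and were not used, and 0 columns of sample values were left unmapped. Values were taken as log2(FPKM + 0.1), genes averaging 0.5 FPKM or more were kept, and limma 3.58.1 (lmFit, eBayes with trend, R 4.3.3) was fitted to all 11956 genes without covariates, with Benjamini-Hochberg adjustment over these genes and a threshold of 0.05. The code was tested on simulated data with known changes. Single values, sums and ratios were tested by exact two-sided permutation (scipy 1.17.1), for which 3 against 3 animals allow no p below 0.1. Exons came from GENCODE M21 and promoters from RefSeq (GRCm38.p6, the assembly of mm10), with 7 of 10 members matched.

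Named are all 10 members, every gene of the pathway lists past an adjusted p of 0.05 (marker lists are given by counts and sums), *Cdkn1a*, *Rb1*, *Myc*, *Ccna2* and *Mki67*, and the 4 genes most like each member past both thresholds, beside *Med23* as the targeted gene. *Cdkn1c*, *Cdkn2a*, *Cdkn2b*, *Cdkn2c*, *Cdkn2d*, *Skp2*, *Ints8*, *Oraov1*, *Tspan31*, *Mcm2*, *Cdc25a*, *Cdc25c*, *Ccnb1* and *Ccnb2* were named outside this rule, and the CCAAT and GC box letters, the Cip/Kip sum and the shares of *Ccne2*, *Cdkn1b* and *Ccnd3* were chosen, after values were seen. The members and lists were chosen with earlier results of these data known. Of the marker lists, 1 of 9 lymphocyte, 5 of 6 cholangiocyte and 1 of 6 adipose tissue genes reached the filter and could be tested, and none of those passed, and no marker stood at 0 in every library. The 15 alternatives changed the pseudocount (1 or 0.01 FPKM), the filter (none or 1 FPKM), the scaling, the eBayes settings, the replicate block, or left out 1 library.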

Additional observations from a re-analysis of the deposited data

How the results depend on the processing

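*Cdkn1b* kept its direction and its call in all 15 alternatives, and the count of lower members was 0 in each. The count of higher members fell from 2 to 1, by the loss of *Ccne2*, without the filter and with a filter of 1 FPKM, and was 1 to 2 with a library left out. The count past both thresholds was 1 with a pseudocount of 1, without the filter and with a filter of 1 FPKM, and 1 to 2 with a library left out. Listed pathway genes numbered 4 to 14 higher and 1 to 7 lower with a library left out, and 1 was lower without the filter. The replicate block kept both member calls (adjusted p = 0.0136 for *Cdkn1b* and 0.0351 for *Ccne2*, limma, Benjamini-Hochberg), left 7 pathway genes higher and 1 lower (none for pocket proteins, E2F and DP factors or for turnover, 1 higher for S phase), and lowered the calls over all genes from 1384 to 809 higher and from 1133 to 614 lower. No pairing of the animals by number was visible. Same-numbered libraries correlated at -0.02, -0.05 and -0.12 in their deviations from the group means, and 0 of 6 libraries correlated best with their own number. With 3 libraries a group this cannot exclude a weak pairing. Without med23Δli replicate 1, 397 genes were higher and 343 lower. Signs of fold changes that did not pass differed in 4 of 15 alternatives for *Ccne1*, 2 for *Cdk6* and 1 for *E2f1*. The cause of these changes was not tested. With a library left out, *Cdkn1b* stayed higher by 0.195 to 0.219 over the D cyclin sum and by 0.652 to 0.810 over *Cdk2*, whereas the difference in the *Ccnd1* share ran from -1.89 to 5.08 percentage points and that in the *Ccnd3* share from -6.13 to 0.0351. Quantile normalization turned the difference in the Cip/Kip sum from 3.45 to -4.45 FPKM. The read number of each library is not known here, and the levels of *Ccne2*, *Cdk6* and *E2f1*, all under 2.1 FPKM, limit what can be seen of them.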

Other observations

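Of the 13 listed genes of G2 and mitosis 8 lay under the filter on low values, and so did the CDK phosphatase gene *Cdc25c*. *Cdc25c*, whose product activates CDK1 at the entry to mitosis, was at 0.0373, 0.120 and 0.0377 FPKM in the med23f/f livers and at 0.515, 0.418 and 0.732 FPKM in the med23Δli livers. Without the filter its log2 fold change was 1.999 (SE 0.28, adjusted p = 0.0139, limma, Benjamini-Hochberg), and it was singled out after its values were seen. Groups without overlap are common here, at 43.7% of all genes tested. *Cdc25a*, the CDK phosphatase of G1, also had groups that did not overlap, but in the other direction, with 4.92 to 5.91 FPKM in controls and 4.11 to 4.87 FPKM in med23Δli, and it did not pass the test (log2 fold change -0.25, adjusted p = 0.252, limma, Benjamini-Hochberg). *Ccnb1* and *Ccnb2*, the cyclins that bind CDK1, overlapped between the groups, with 0.171 to 0.447 and 0.0493 to 0.542 FPKM in controls and 0.0829 to 0.917 and 0.339 to 0.816 FPKM in med23Δli. In the fit without the filter *Ccnb1* had an adjusted p of 0.562 and *Ccnb2* of 0.275 (limma, Benjamini-Hochberg).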
